A study of Mus musculus with 6 samples.

Results

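The ligands and receptors of the tumour necrosis factor (TNF) superfamily were examined in RNA-Seq of liver from 3 WT and 3 Vps15LKO mice. Members were the protein-coding genes whose symbol begins with Tnfsf or Tnfrsf and a number, together with Tnf, Lta, Ltb, Fas, Fasl, Cd40, Cd40lg and Ltbr, which gave 39 genes (16 ligands and 23 receptors) of the 56305 genes in the table. All mice were male, 5 weeks old, fed ad libitum and kept in a light–dark cycle, and livers were collected at ZT6, with 1 library per liver. Vps15LKO mice were AlbCre+;Vps15 f/f, so that Vps15 (gene Pik3r4), the regulatory subunit of class 3 PI3K, was deleted by Cre under the albumin promoter, which is active in hepatocytes. Which other cells of the liver kept the gene was not measured here. WT mice were their controls, and the labels do not say whether they carried the floxed allele. The replicate numbers name separate livers and tie no WT liver to a Vps15LKO liver.

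TNF superfamily ligands are mostly trimers on the cell surface, and many are also cut off as soluble proteins. They cluster their receptors, which either carry a death domain that can recruit caspase-8 through Fadd and Tradd, or bind Traf adaptors that lead to NF-kB and stress kinases. Decoy receptors bind a ligand without passing on a full signal. In liver, TNF, Fas ligand and TRAIL are known for hepatocyte death in inflammation, TWEAK and its receptor Fn14 for progenitor cell growth after injury, and lymphotoxin for immune cell traffic.

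The unit throughout is the normalized count of the authors, the reads on a gene divided by 1 size factor per library. The libraries held from 16137093 to 18110223 reads on genes, so that each read counted as 1.25 to 1.35 normalized counts in a WT and 0.707 to 0.810 in a Vps15LKO library. A gene was tested, with limma on log2(normalized count + 1), where 3 or more of the 6 livers reached 20 normalized counts, and was called where the fold was 1.2 or more and the Benjamini-Hochberg adjusted p under 0.05. On this scale the fold of genes with low counts depends on the pseudocount of 1. Over all tested genes the median log2 fold change was −0.02 here and 0.70 where every library was instead scaled to the same total of reads (total-read scaling), so that directions near 0 depend on the scaling. Pik3r4 (GRCm38, chromosome 9, 105642978 to 105687657) stood at 508, 573 and 460 normalized counts in WT and 341, 362 and 355 in Vps15LKO livers (log2 fold change −0.54, adjusted p = 0.0021), but 0.19 with total-read scaling. Reads of the recombined locus were not counted apart from the rest. Markers fixed for the main cell types showed that the tissue was liver, with 8 hepatocyte markers summing to 2684553 to 3034760 normalized counts in WT livers and to 794326 to 1209893 in Vps15LKO livers. In whole liver, fewer cells of a type and less RNA per cell cannot be told apart.

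Sequences upstream of the transcription start were read for the members on which the results turn. RefSeq (GRCm38.p6) gave 34 promoter windows for 30 members and none for the other 9. Each window shown holds the 250 bases before the start, 5′ to 3′ on the strand of the gene, with motif matches in capitals. The first 3 belong to receptors with large differences in Vps15LKO liver and the fourth to Ltbr, the sole member called lower. They lie at chr17:23677450-23677699 (minus strand), chr7:143685876-143686125 (minus strand), chr4:150927749-150927998 (plus strand, the second of 2 listed starts) and chr6:125313886-125314135 (minus strand).
Tnfrsf12a: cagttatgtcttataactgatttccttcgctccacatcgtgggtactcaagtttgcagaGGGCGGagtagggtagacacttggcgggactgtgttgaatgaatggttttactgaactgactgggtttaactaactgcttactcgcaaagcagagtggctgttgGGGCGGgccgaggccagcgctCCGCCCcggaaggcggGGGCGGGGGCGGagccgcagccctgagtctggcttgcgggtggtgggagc
Tnfrsf23: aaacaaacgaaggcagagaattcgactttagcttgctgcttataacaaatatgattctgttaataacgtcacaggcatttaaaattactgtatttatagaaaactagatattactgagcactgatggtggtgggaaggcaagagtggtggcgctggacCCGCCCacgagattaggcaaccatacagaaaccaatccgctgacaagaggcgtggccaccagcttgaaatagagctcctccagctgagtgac
Tnfrsf9: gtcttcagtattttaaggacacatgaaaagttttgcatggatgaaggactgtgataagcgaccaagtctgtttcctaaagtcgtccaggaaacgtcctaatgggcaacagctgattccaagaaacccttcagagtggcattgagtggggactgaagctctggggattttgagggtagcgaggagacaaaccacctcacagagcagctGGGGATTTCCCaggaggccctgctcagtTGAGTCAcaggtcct
Ltbr: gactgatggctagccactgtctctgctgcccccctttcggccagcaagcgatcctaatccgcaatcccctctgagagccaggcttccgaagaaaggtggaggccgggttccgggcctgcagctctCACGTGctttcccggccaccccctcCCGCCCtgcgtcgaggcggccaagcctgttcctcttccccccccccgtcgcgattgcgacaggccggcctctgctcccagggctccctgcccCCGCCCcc
The motifs searched on both strands were the E-box CACGTG, to which Bmal1–Clock is known to bind, the AP-1 site TGANTCA, the GC-box GGGCGG and the NF-kB consensus. The Tnfrsf12a window held 5 GC-boxes and the Tnfrsf23 window held 1. The Tnfrsf9 window held 2 matches to the NF-kB consensus that overlap each other, beginning 43 and 42 bases before the start, and an AP-1 site beginning 15 bases before it. The window at the first listed start of Tnfrsf9 (chr4:150919905-150920154, not shown) held a GC-box and no match to the NF-kB consensus or the AP-1 site. The Ltbr window held an E-box beginning 125 bases before the start and 2 GC-boxes. No match in these 4 windows overlapped one to a different motif. Over all 32851 windows of this length, 6.02% held the E-box, 6.75% the AP-1 site, 32.7% the GC-box and 5.0% the NF-kB consensus. Among the 34 member windows, 5 held the E-box (Fas, Ltbr, Tnfrsf19, Tnfrsf4 and Tnfrsf8), 6 the AP-1 site, 15 the GC-box and 3 the NF-kB consensus (Tnfrsf25, Tnfrsf8 and Tnfrsf9). A match is a run of letters and not a measured site.

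Most members that were measured stood higher in Vps15LKO liver. Of the 39 members, 23 passed the filter (5 ligands and 18 receptors). In limma, 20 of these were called higher, where 33.5% of the 15430 tested genes were, and 1 was called lower, where 33.0% were. The other 2, Tnfsf10 and Fas, were not called. Of the 23, 7 passed only through the Vps15LKO livers, and so had to differ, and 4 passed through livers of both genotypes without reaching 20 in all 6. The 12 members that reached 20 normalized counts in all 6 livers are free of that selection, and 9 of them were called higher and 1 lower, with a median log2 fold change of 0.81. Of the 13101 genes at that level, 27.7% were higher and 36.1% lower, and their median was −0.10. With total-read scaling, 22 of the 23 members were called higher and 0 lower, where 66.7% of all tested genes were higher and 11.1% lower. Of the 38 members with a read in any liver, 27 (71.1%) had all 3 Vps15LKO values above all 3 WT values, where 27.5% of the 29328 genes with a read did. In 1 member, Ltbr, all WT values were above, as in 21.8% of those genes. The 3 against 3 livers allow no exact permutation p under 0.1 for a single gene.

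**Figure D1:**
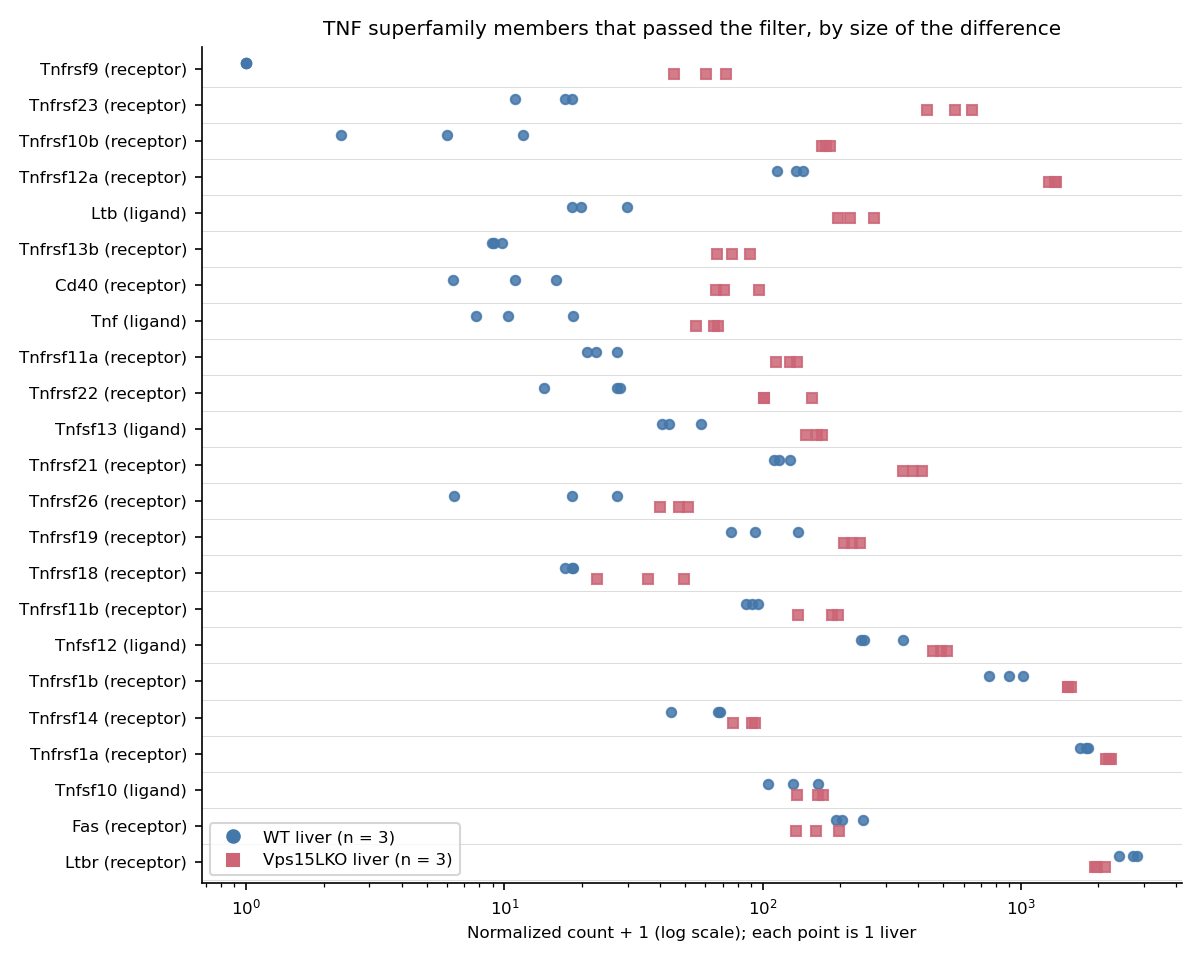
Normalized counts plus 1 (log axis) of the 23 members that passed the filter, with 1 circle per WT liver and 1 square per Vps15LKO liver and the largest fitted difference at the top. The squares lie to the right of all circles in every row but the last 3 (Tnfsf10, Fas and Ltbr), and Tnfrsf9 was at 0 in all 3 WT livers.

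Among the ligands of the TNF and lymphotoxin branch, Tnf and Ltb were higher in Vps15LKO liver. Tnf, which passed the filter only through the Vps15LKO livers, is the founding ligand and a main product of activated macrophages. It had 9.28, 17.5 and 6.74 normalized counts in WT and 66.4, 54.3 and 63.7 in Vps15LKO livers. The groups did not overlap, and the WT livers varied more in proportion than the Vps15LKO livers. For Tnf this was 2.45 on the log2 scale (standard error 0.34, adjusted p = 2.6e-04), and 1.41 with quantile normalization and 1.78 with a pseudocount of 10, called higher in both. Ltb, which encodes lymphotoxin beta and forms the membrane heterotrimer with lymphotoxin alpha, had 17.2, 28.7 and 18.9 normalized counts in WT and 195, 216 and 269 in Vps15LKO livers. All Vps15LKO values stood apart from the WT values (log2 fold change 3.35, standard error 0.23, adjusted p = 6.6e-06). Lta, which encodes lymphotoxin alpha and lies next to Tnf on chromosome 17, had 0 reads in each WT library and 3, 2 and 10 reads in the Vps15LKO libraries. No fold is given for Lta, because its mean of 3.66 normalized counts in Vps15LKO livers is below what 3 reads are worth in a WT library (3.92 normalized counts on average).

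TWEAK and APRIL ranked first and second among the ligands per kb of exon in WT liver, although the range of APRIL overlapped that of the third, Tnfsf10, and both were higher in Vps15LKO liver. Tnfsf12, which encodes TWEAK, had 245, 239 and 349 normalized counts in WT and 491, 515 and 457 in Vps15LKO livers. The groups did not overlap (log2 fold change 0.83, standard error 0.15, adjusted p = 0.0013). Tnfsf13, which encodes APRIL, a survival factor of plasma cells, had 39.8, 42.5 and 56.6 normalized counts in WT and 162, 147 and 169 in Vps15LKO livers. All Vps15LKO values were above (log2 fold change 1.77, standard error 0.18, adjusted p = 4.2e-05). These neighbours on chromosome 11 (69682846 to 69695849) share exons on the same strand with the read-through gene Tnfsfm13, which covers 48.3% of the exon length of Tnfsf12 and 60.1% of that of Tnfsf13. Tnfsfm13 was also called higher, with a log2 fold change of 0.94, and how its reads were split from the other 2 genes is not given in the sources used here. Tnfsf13 further shares 221 exon bases with the antisense gene Tnfsf13os, and although the library kit marks strand, whether featureCounts used it is not given in the sources used here.

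Tnfsf10, which encodes TRAIL, was the ligand that passed the filter without a call. It had 130, 162 and 104 normalized counts in WT and 163, 171 and 135 in Vps15LKO livers. The ranges overlapped, and the log2 fold change was 0.26 (95% interval −0.16 to 0.68, adjusted p = 0.24), while it was 0.98 and called higher with total-read scaling and −0.08 with quantile normalization. The other death ligands lay under the filter. Fasl, the Fas ligand of cytotoxic lymphocytes, had 2, 1 and 1 reads in WT and 15, 4 and 11 in Vps15LKO libraries, a ratio of 4.35 (95% counting interval 1.53 to 17.0). Tnfsf15, which encodes TL1A, ranged from 1.35 to 6.25 normalized counts in WT livers and from 1.41 to 4.05 in the others.

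In all, 16 members lay under the filter, with values from 0 to 26.2 normalized counts. All 6 ligands of lymphocyte co-stimulation were among them. Tnfsf9, which encodes the 4-1BB ligand, had 1, 2 and 1 reads in WT and 23, 11 and 21 in Vps15LKO libraries, a ratio of 7.98 (2.95 to 30.3, counting error only). It shares 192 exon bases, 14.9% of its exon length, with the antisense gene Gm11110. Tnfsf8, the CD30 ligand, had 0 reads in each WT library and 11, 15 and 22 in the Vps15LKO libraries, at least 3.07-fold higher with WT set to the limit of 3 reads per library. Its receptor Tnfrsf8 (CD30) had 2, 0 and 1 reads in WT and 7, 9 and 7 in Vps15LKO libraries (ratio 4.45, 1.34 to 23.1). For Tnfsf18, the GITR ligand, 9 of the 12 Vps15LKO reads came from replicate 1, against 1 read in WT in all. Cd40lg, the CD40 ligand of T cells, had 3 WT reads and 12 Vps15LKO reads (ratio 2.32, 0.63 to 12.8). Tnfsf14 (LIGHT) had 6.63, 7.49 and 2.70 normalized counts in WT and 15.3, 8.91 and 17.0 in Vps15LKO livers, and Tnfsf13b (BAFF, a B cell survival factor) lay between 10.8 and 14.6 in the WT group and between 16.04 and 26.2 in the other. Neither pair of ranges overlapped. Tnfsf11 (RANKL) and Tnfrsf17 (BCMA) had at most 3 reads in any library, and Tnfsf4 (OX40 ligand) had 0 reads in all 6, below a limit of detection of 3 reads per library. Tnfrsf13c (BAFF receptor), Tnfrsf25 (DR3) and Tnfrsf4 (OX40) had 2.65 to 13.4 normalized counts over both genotypes, with overlapping ranges. With no filter on low values, limma tested 15 of these 16 members, without Tnfsf4, and called 5 higher (Fasl, Lta, Tnfrsf8, Tnfsf8 and Tnfsf9) and 0 lower, where it called 23.4% of 29328 genes higher and 18% lower.

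Of the 5 death-domain receptors, 3 were called higher, where 33.5% of all tested genes were, Fas was not called and Tnfrsf25 lay under the filter. Tnfrsf1a, the receptor through which soluble TNF mainly signals, had 1782, 1815 and 1697 normalized counts in WT and 2147, 2241 and 2193 in Vps15LKO livers. This was a small difference without overlap (log2 fold change 0.31, standard error 0.08, adjusted p = 0.0088). Tnfrsf10b, the sole mouse TRAIL receptor with a death domain, had 1.33, 5.0 and 10.8 normalized counts in WT and 170, 182 and 175 in Vps15LKO livers. It passed the filter only through the Vps15LKO livers and was close to the detection limit in WT, with 1 to 8 reads a library, and clearly present in every Vps15LKO liver (log2 fold change 5.01, standard error 0.51, adjusted p = 4.9e-05). Its call held at smaller values without WT replicate 1 (4.39), with quantile normalization (3.68) and with a pseudocount of 10 (3.61). Tnfrsf21, or death receptor 6, had 110, 126 and 115 normalized counts in WT and 381, 412 and 349 in Vps15LKO livers (log2 fold change 1.69, standard error 0.12). The receptor Fas had 244, 201.1 and 191 normalized counts in WT and 160, 197 and 134 in Vps15LKO livers. Its ranges overlapped, as Vps15LKO replicate 2 lay among the WT livers, and the log2 fold change was −0.38 (95% interval −0.77 to 0.00, adjusted p = 0.073). The call on Fas turned on the setting, with −0.52 and a call as lower without Vps15LKO replicate 2, −0.63 and a call as lower with quantile normalization, and 0.34 without a call with total-read scaling.

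The decoys Tnfrsf11b, Tnfrsf22 and Tnfrsf23 were taken with Tnfrsf26, a neighbour of the last 2 that was not counted as TRAIL-binding here. All 4 were called higher, where 33.5% of all tested genes were. Tnfrsf23 passed the filter only through the Vps15LKO livers, and Tnfrsf22 and Tnfrsf26 reached 20 normalized counts in only some WT livers, so that 1 of the 4, Tnfrsf11b, is free of that selection. Tnfrsf23, a decoy TRAIL receptor, had 17.2, 9.99 and 16.2 normalized counts in WT and 555, 434 and 647 in Vps15LKO livers. The groups lay far apart, with a difference of 5.16 on the log2 scale (standard error 0.24, adjusted p = 1.0e-06), or 4.499 with a pseudocount of 10. Tnfrsf22, its neighbour and also a decoy for TRAIL, had 13.3, 26.2 and 27.0 normalized counts in WT and 100.04, 100.5 and 154 in Vps15LKO livers (log2 fold change 2.40, standard error 0.31, and 1.72 with quantile normalization). The transcripts of both share 719 stretches of 50 bases, 17.3% of those of Tnfrsf22 and 18.01% of those of Tnfrsf23, so the split of reads between them is uncertain. Tnfrsf26, the third gene of this cluster of 78.2 kb on chromosome 7 (143607659 to 143685872), had 17.2, 26.2 and 5.39 normalized counts in WT and 46.6, 38.9 and 50.2 in Vps15LKO livers. The spread of its WT livers was wide, and the difference, 1.65 on the log2 scale (standard error 0.49, adjusted p = 0.016), was 1.04 and still called without WT replicate 3, and 0.68 and not called with quantile normalization. Tnfrsf23 and Tnfrsf26 share 164 and 107 exon bases with an antisense gene. Tnfrsf11b, which encodes osteoprotegerin, the soluble decoy for RANKL and TRAIL, had 84.9, 94.9 and 90.3 normalized counts in WT and 184, 194 and 136 in Vps15LKO livers (log2 fold change 0.91, standard error 0.16, adjusted p = 0.0012).

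Of 5 further receptors that bind Traf adaptors, 4 were called higher, against 33.5% of all tested genes, and Ltbr was the sole member called lower. Tnfrsf12a, which encodes Fn14, the receptor of TWEAK, had 142, 112 and 133 normalized counts in WT and 1372, 1280 and 1358 in Vps15LKO livers. The groups were far apart relative to their spread (log2 fold change 3.37, standard error 0.11, adjusted p = 2.8e-07). Tnfrsf1b, the second TNF receptor, had 903, 754 and 1016 normalized counts in WT and 1566, 1518 and 1528 in Vps15LKO livers (log2 fold change 0.80, standard error 0.12). Tnfrsf11a, which encodes RANK, had 19.9, 26.2 and 21.6 normalized counts in WT and 111, 127 and 135 in Vps15LKO livers (log2 fold change 2.42, standard error 0.19, and 1.79 with quantile normalization). Both differed without overlap. Tnfrsf19, or TROY, had 92.8, 136 and 74.1 normalized counts in WT and 205, 220 and 238 in Vps15LKO livers (log2 fold change 1.17, standard error 0.21). Ltbr, the receptor of the lymphotoxin heterotrimer and of LIGHT, had 2830, 2732 and 2409 normalized counts in WT and 1978, 2123 and 1929 in Vps15LKO livers. All WT values were above all Vps15LKO values, and Ltbr was called lower with the authors' size factors (log2 fold change −0.40, standard error 0.10, adjusted p = 0.0062), but was 0.33 and called higher with total-read scaling and 0.06 with quantile normalization.

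Receptors of lymphocytes and antigen-presenting cells ranged in WT liver from no reads for Tnfrsf9 to rank 6 of 23 receptors per kb for Tnfrsf14. Tnfrsf9, which encodes 4-1BB, a receptor of activated T and NK cells, was at 0 in each WT liver and had 59.6, 44.6 and 71.4 normalized counts in Vps15LKO livers, at least 14.9-fold higher with WT set to the limit of 3 reads per library (adjusted p = 6.5e-06). Cd40, which is carried by B cells, dendritic cells and macrophages, had 5.30, 9.99 and 14.8 normalized counts in WT and 95.5, 69.7 and 65.1 in Vps15LKO livers (log2 fold change 2.89, standard error 0.36). Tnfrsf13b, which encodes TACI, a receptor of APRIL and BAFF, had 7.96, 8.74 and 8.09 normalized counts in WT and 74.8, 65.6 and 88.4 in Vps15LKO livers (log2 fold change 3.05, standard error 0.23). With quantile normalization the log2 fold changes were 1.81 for Cd40 and 1.93 for Tnfrsf13b, and with a pseudocount of 10 they were 2.12 and 2.23, all called higher. Tnfrsf9, Cd40, Tnfrsf13b and Tnfrsf18 passed the filter only through the Vps15LKO livers. Tnfrsf14, or HVEM, had 67.6, 66.2 and 43.1 normalized counts in WT and 92.4, 89.9 and 75.7 in Vps15LKO livers. Its log2 fold change of 0.56 (adjusted p = 0.043) was not called with DESeq2, without a filter, with quantile normalization (0.02), or without WT replicate 3 (0.35), Vps15LKO replicate 1 (0.51) or Vps15LKO replicate 2 (0.52). Tnfrsf18, or GITR, had 17.2, 17.5 and 16.2 normalized counts in WT and 35.1, 21.9 and 48.8 in Vps15LKO livers. Its log2 fold change of 0.94 (adjusted p = 0.027) ended at −0.01 with quantile normalization, and its call was lost with limma voom and without any 1 of the livers other than Vps15LKO replicate 2 (0.68 to 0.96). It shares 414 exon bases, 27.2% of its exon length, with an antisense gene. On distal chromosome 4, 7 receptor genes lie within 10.8 Mb (145213463 to 156028895). Tnfrsf1b, Tnfrsf9, Tnfrsf14 and Tnfrsf18 among them were called higher, where 33.5% of all tested genes were, and Tnfrsf4, Tnfrsf8 and Tnfrsf25 were under the filter.

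**Figure D2:**
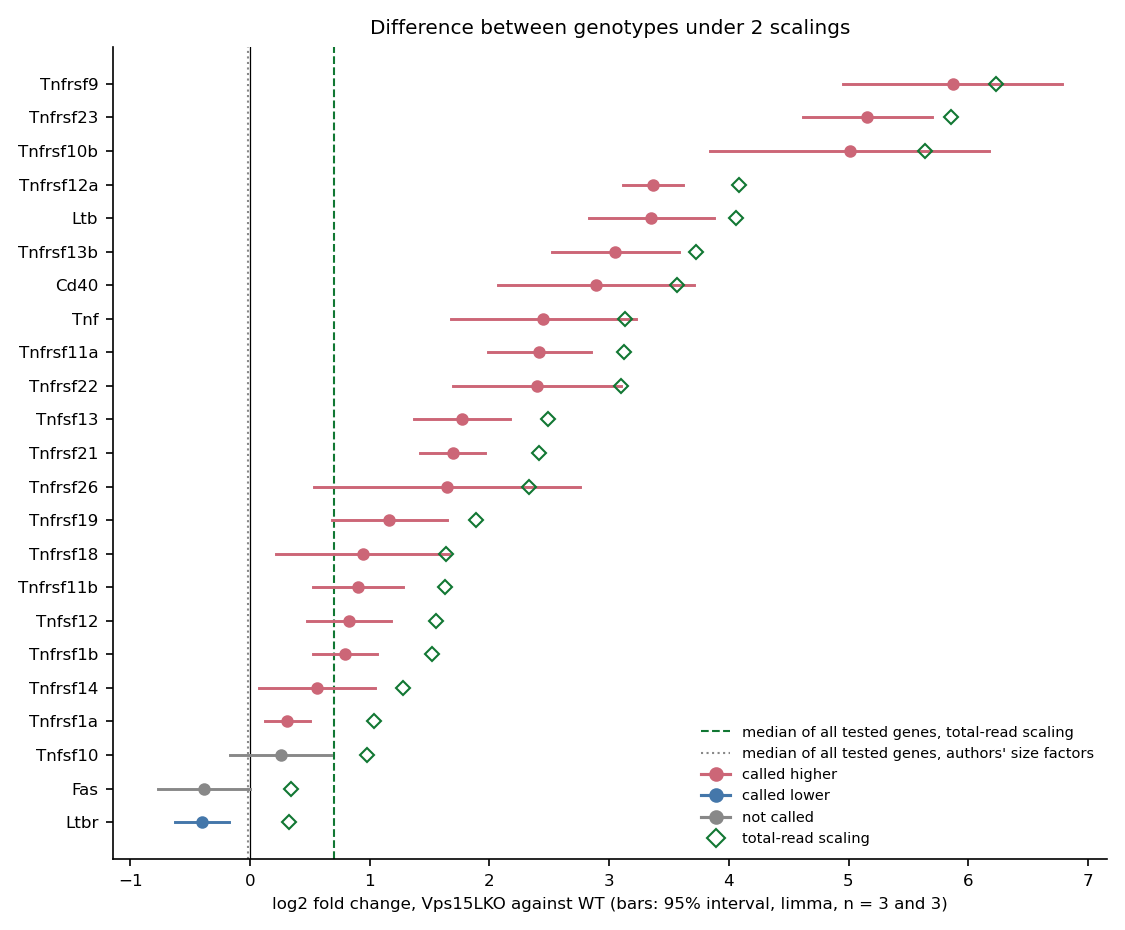
Log2 fold changes of Vps15LKO against WT for the 23 tested members, with points and bars for limma and its 95% interval with the authors' size factors (red called higher, blue called lower, grey not called) and open diamonds for total-read scaling. The diamonds lie to the right of the points in every row, Ltbr and Fas change sign, and the fitted value of Tnfrsf9 depends on the pseudocount because its WT livers were at 0.

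Levels of different genes were compared per kb of exon. In WT liver the receptors ranked Ltbr (1129 ± 93.5 normalized counts per kb, SD, n = 3), Tnfrsf1a (681 ± 23.5), Tnfrsf1b (233 ± 34.4), Fas (103 ± 13.6) and Tnfrsf12a (66.9 ± 7.85), and no neighbours in this order overlapped. In Vps15LKO liver they ranked Ltbr (854 ± 42.8), Tnfrsf1a (846 ± 18.1), Tnfrsf12a (692 ± 25.7), Tnfrsf1b (403 ± 6.71) and Tnfrsf23 (138 ± 27.05), and here Ltbr and Tnfrsf1a did not differ beyond their spread. Fn14 thus moved from rank 5 to rank 3 and Tnfrsf23 from rank 15 to rank 5 of 23, although its WT level (2.52 to 4.35 per kb) overlapped those of its neighbours in that order. Of the summed level of all receptors, Ltbr held 47.3% ± 1.77 in WT and 24.6% ± 1.15 in Vps15LKO livers, while Tnfrsf12a held 2.81% ± 0.34 and 19.9% ± 0.80 (SD, n = 3). Among ligands, Tnfsf12 ranked first in both genotypes, at 183 ± 40.9 and 322 ± 19.4 normalized counts per kb, and Ltb went from rank 4 (14.3 ± 4.10) to rank 2 (150 ± 25.4).

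Ratios taken within a liver do not depend on the size factor of the library, and those given here were chosen after the values were seen. Tnfrsf12a stood at 0.45, 0.37 and 0.30 of Tnfsf12 per kb in WT livers and at 2.19, 1.95 and 2.33 in Vps15LKO livers. By these values receptor mRNA lay under that of its ligand in every WT liver and above it in every Vps15LKO liver. Tnfsf12 shares 48.25% of its exon length with Tnfsfm13, and how reads there were counted is not given. If they were left out of Tnfsf12, its level per kb is too low, so the crossing of equal levels is not secure. Ltb per Ltbr was 0.013 ± 0.003 in WT and 0.18 ± 0.04 in Vps15LKO livers, a 13.9-fold difference. Tnf per Tnfrsf1a was 0.0099 ± 0.0047 and 0.044 ± 0.0055. Tnfrsf1a per Ltbr was 0.57, 0.60 and 0.64 in WT and 0.99, 0.96 and 1.03 in Vps15LKO livers. The genotypes did not overlap in these 4 ratios, and each gave an exact permutation p of 0.1 (two-sided), the smallest that 3 against 3 livers allow. Because the ratios were chosen from values already seen to differ, this p is no test of them. Tnf, and Tnfrsf23 and Tnfrsf10b in the proportions below, passed the filter only through the Vps15LKO livers. The proportions among the receptors that bind TRAIL were set side by side in the same way. Osteoprotegerin (Tnfrsf11b) held 76.4% ± 3.93 of the summed level per kb of the 4 TRAIL-binding receptors in WT and 23.9% ± 6.15 in Vps15LKO livers. Tnfrsf23 held 8.83% ± 2.85 and 52.9% ± 5.98, and Tnfrsf10b, which carries the death domain, 2.40% ± 1.92 and 12.5% ± 1.42. Tnfrsf22 held 12.3% ± 3.49 and 10.8% ± 2.04, with overlapping ranges.

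**Figure D3:**
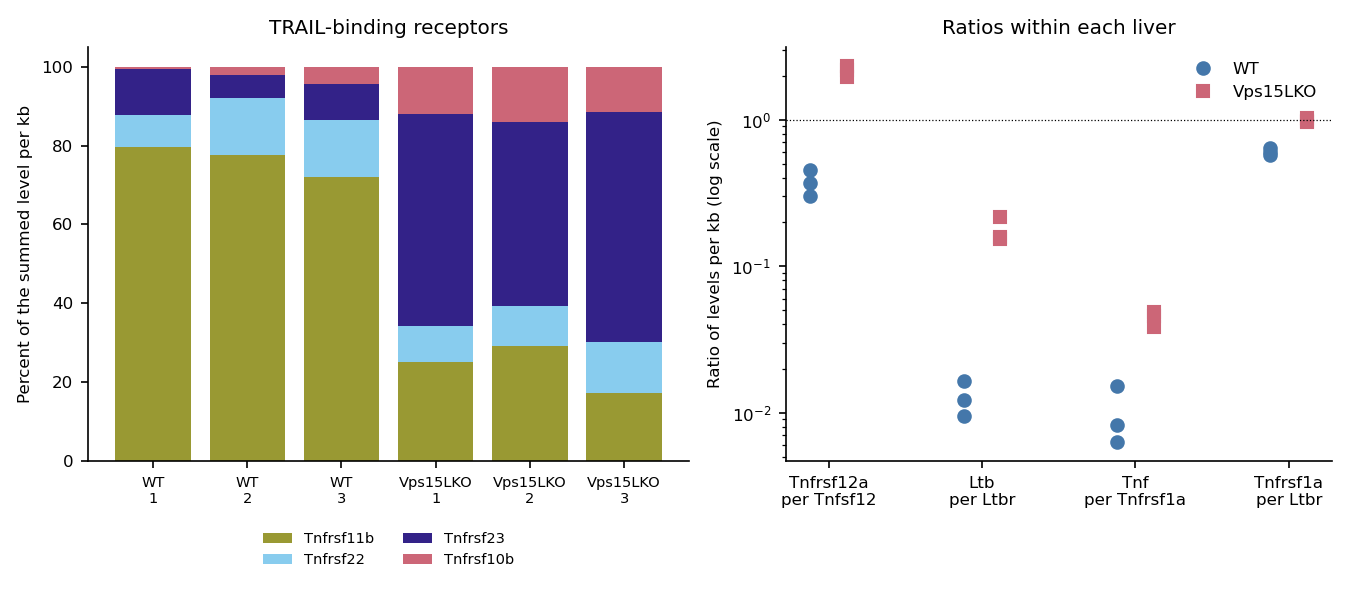
The bars at left give, for each liver, the percent of the summed level per kb of 4 TRAIL-binding receptors held by each, and the points at right give 4 ratios of levels per kb (log axis, circles WT, squares Vps15LKO, dotted line at equal levels). Tnfrsf11b takes most of each WT bar and Tnfrsf23 the largest part of each Vps15LKO bar, and the Tnfrsf12a per Tnfsf12 points lie under the dotted line in WT and above it in Vps15LKO livers. That crossing may depend on how reads of the exons shared by Tnfsf12 and Tnfsfm13 were counted.

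Ligands and receptors were also read as 26 known pairs, using the calls already given, so that the share of 33.5% of all tested genes called higher and the filter's selection of Tnf, Tnfrsf13b, Tnfrsf9, Cd40, Tnfrsf10b, Tnfrsf18 and Tnfrsf23 apply here too. Both partners were called higher in 4 pairs, Tnf with Tnfrsf1a, Tnf with Tnfrsf1b, Tnfsf12 with Tnfrsf12a, and Tnfsf13 with Tnfrsf13b. In 9 pairs the receptor was higher and the ligand lay under the filter, among them Tnfrsf9, Cd40, Tnfrsf11a and Tnfrsf18 with their ligands. The 4 pairs of Tnfsf10 joined an uncalled ligand to receptors that were called higher. Ltbr, lower with the authors' size factors and higher with total-read scaling, was paired with Ltb, which was higher in both.

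Other genes of the pathway followed the members only in part. Of all tested genes, 33.5% were called higher and 33% lower. Of 5 superfamily genes outside the naming rule that were tested (of 8), all 5 were called higher with a median log2 fold change of 1.15, led by Eda2r (2.97) and Relt (2.30), which passed the filter only through the Vps15LKO livers, and the neurotrophin receptor Ngfr (1.15). Of the 6 Traf adaptors, Traf1 (2.55, which passed only through the Vps15LKO livers), Traf3 (0.82) and Traf2 (0.32) were higher, Traf4 (−0.16) and Traf5 (0.24) were not called, and Traf6 (−0.34) was lower, but called higher (0.39) with total-read scaling. The median of the list was 0.28, and with total-read scaling all 6 were called higher. The 9 genes of the death-inducing complex had a median of 0.00, with Birc3 (0.58), an inhibitor of apoptosis, called higher and 2 inhibitors of apoptosis, Xiap (−0.91) and Cflar (−0.84), called lower. The other 6, among them Fadd (−0.06), Ripk1 (0.05) and Casp8 (0.10), were not called, whereas 7 of the 9 were higher and 0 lower with total-read scaling, which called 66.7% of all tested genes higher and left Xiap (−0.18) and Cflar (−0.11) uncalled. Among 11 genes of the ubiquitin and kinase steps (median −0.06), Map3k14 (1.46), the NF-kB-inducing kinase of the alternative pathway, and Tab1 (0.43) were higher. Chuk (−1.49), which encodes IKK alpha, was lower with the authors' size factors and with total-read scaling (−0.76), while Map3k7 (−0.51) and Sharpin (−0.49) were lower only with the former and stood at 0.22 and 0.24, not called, with the latter. With total-read scaling 8 of the 11 were higher and 1 lower, again near the share over all genes.

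Nuclear and downstream genes of NF-kB were mostly called higher, where 33.5% of all tested genes were, or 66.7% with total-read scaling. All 5 subunits were called higher with a median of 1.11, led by Relb (3.01) and Nfkb2 (2.16), the subunits of the alternative pathway, and Rel (1.11). Of 11 feedback genes (median 0.81), 7 were higher, led by Tnfaip3 (2.56, the deubiquitinase A20), Tnip1 (2.45) and Nfkbie (2.29), and Otulin (−0.54) was lower but 0.19 and not called with total-read scaling. Nfkbia (0.06), which encodes IkB alpha, Nfkbib (0.19) and Cyld (−0.14) were not called. Of 12 adhesion and chemokine genes that NF-kB is known to drive, 10 were tested, 9 were higher and 1 was lower, with a median of 3.64, or 3.22 with Sele, at the detection limit in WT, set to its lower bound. Sele and Ccl2 passed only through the Vps15LKO livers, and the other 8 had a median of 2.50. Ccl2 (7.04), Lcn2 (5.60) and Cxcl10 (5.20) led, while Sod2, a mitochondrial superoxide dismutase that TNF is known to induce, was lower (−1.47, and −0.75 with total-read scaling). The 5 genes for shedding of ligands and receptors were all higher with a median of 1.72, among them Timp3 (1.87), an inhibitor of Adam17, Rhbdf1 (1.83) and Rhbdf2 (1.72), partners of Adam17, and Adam17 itself (0.43). Over all tested genes the median was −0.02.

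**Figure D4:**
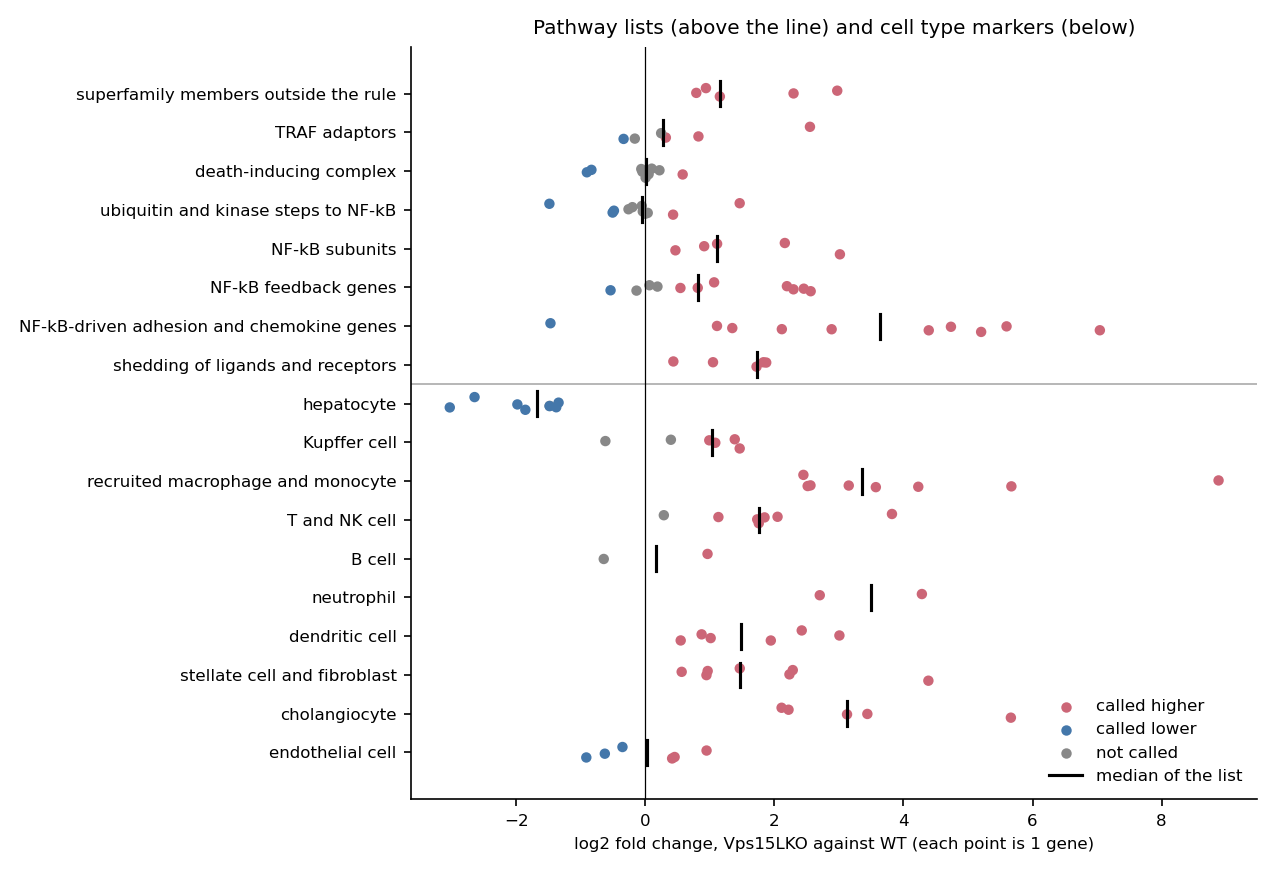
Log2 fold changes of Vps15LKO against WT for the tested genes of 8 pathway lists (above the grey line) and 10 lists of cell type markers (below it), with 1 point per gene coloured by its limma call and a black bar at the median of the list. The median is 3.64 for adhesion and chemokine genes, 0.00 for the death-inducing complex and −1.67 for hepatocyte markers.

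Markers of several cell types moved with the members. Of all tested genes, 33.5% were called higher and 33% lower, and 66.7% were higher with total-read scaling. The 8 markers of recruited macrophages and monocytes were all called higher (median 3.36), although Trem2 and Gpnmb passed the filter only through the Vps15LKO livers, and their sum ran from 1413 to 2034 normalized counts in the WT and from 14276 to 17926 in the Vps15LKO livers. Of 6 Kupffer cell markers, 4 were higher (median 1.04), while Clec4f (0.40) and Timd4 (−0.62) were not called. T and NK cell markers summed to 102 to 107 in WT and 327 to 403 in Vps15LKO livers, with 6 of 7 tested higher (median 1.76) and Klrb1c (0.29) not called. Of the 6, 4 passed the filter only through the Vps15LKO livers and so had to differ, Cd8a (3.82), Nkg7 (2.05), Cd3d (1.85) and Cd3e (1.73). The sum over the 5 B cell markers was 72.9 to 117 in WT and 75.0 to 108 in Vps15LKO livers, with 1 of the 2 tested, Cd79b (0.96), higher and the other, Cd79a (−0.65), not called. All 7 stellate cell and fibroblast markers (median 1.46), all 6 dendritic cell markers (1.48) and all 5 cholangiocyte markers (3.13) were higher, where 3 of the dendritic cell and 1 of the cholangiocyte markers passed only through the Vps15LKO livers. Of 5 neutrophil markers, the 2 that were tested, S100a8 and S100a9, passed only through those livers and so had to be higher. Ly6g, a defining neutrophil marker, was at 0 in the 3 WT livers and at 2.29, 4.05 and 4.95 normalized counts in the Vps15LKO livers, near the detection limit in both. The sum over the 5 neutrophil markers ran from 13.5 to 22.5 normalized counts in WT livers and from 115 to 190.3 in Vps15LKO livers. Of 6 endothelial markers, 3 were higher and 3 lower (median 0.03), where with total-read scaling 4 were higher and 0 lower. Of 8 hepatocyte markers, 7 were lower and Alb (−1.48) was not called, with the same counts under total-read scaling. Alb stood at 2350416, 2169879 and 2030859 normalized counts in WT and at 786995, 968935 and 620735 in Vps15LKO livers. These values did not overlap, and the lack of a call went with a large fitted standard error (1.38). These values stand beside those of Tnf, Ltb, Tnfrsf9, Cd40, Tnfrsf13b and the other members that immune cells are known to carry, and of Tnfrsf12a, Tnfrsf23 and Tnfrsf10b. The part of each cell type in the difference of a member was not tested.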

How the data were processed

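RNA-Seq libraries of 3 WT and 3 Vps15LKO livers were grouped by the genotype in the labels. The authors used SOAPnuke for read filtering, HISAT2 for alignment to GRCm38, featureCounts for gene counts and DESeq2 for normalization. Versions, strand and multi-mapping settings are not stated. The deposited signal is the read count divided by 1 size factor per library (0.742 to 0.801 in WT, 1.23 to 1.41 in Vps15LKO), with no other filter. Whole reads were recovered for 100% of values (tolerance 0.1 reads). Intervals and limits on reads cover counting error only. Symbols and coordinates came from GENCODE M21 (55227 genes matched), exon lengths from the union of exons.

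log2(normalized count + 1) of 15430 genes was compared with limma 3.58.1 (lmFit, eBayes with a trend) in R 4.3.3, two-sided, with Benjamini-Hochberg adjustment over all of them, without a replicate block. On recovered reads, edgeR 4.0.16 called 5170 genes higher and 5150 lower. Alternatives were DESeq2 1.42.0, limma voom, limma without a trend, pseudocounts of 0.1 and 10, other filters, scalings and fold limits, each liver left out, and a replicate block. Chi-square per gene between replicates was 14.0 to 36.4, so no library was a copy. P-values measure the spread between these livers. Deviations of same-numbered WT and Vps15LKO livers correlated at −0.01, −0.01 and 0.05, so the numbers were not taken as pairs. Members, lists and motifs were chosen with earlier results of these data known. Named genes were every member, and up to 3 called genes with the largest change per list, with uncalled genes where few remained. Beyond this, Traf2, Tab1, Sharpin, Otulin, Sod2, Adam17, Tnfsfm13, Sele, Cd3e, Fadd, Ripk1, Casp8 and Ly6g were named after their values were seen. Tables and plots were made in Python 3.11.15 (pandas 2.3.3, numpy 2.4.6, matplotlib 3.10.9).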

Additional observations from a re-analysis of the deposited data

How the results depend on the processing

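Over 21 alternatives, 472 values of the 23 tested members were computed, of which 444 kept direction and side of the threshold, 20 lost the call, 3 gained one and 5 reversed. The reversed values were Tnfrsf18 (−0.0125) and Tnfsf10 (−0.0823) with quantile normalization, Fas (0.34) with total-read scaling, and Ltbr with total-read scaling (0.33) and with quantile normalization (0.0616). Of all tested genes, 10299 were higher and 1712 lower with total-read scaling, against 5163 and 5099, and 3228 and 1957 at a fold of at least 2. Members called higher numbered 9 where 20 normalized counts were required in all 6 livers, since fewer members were then tested, and 18 to 19 with each liver left out. Members called lower numbered 0 with total-read scaling and at a fold of at least 2, and 1 to 2 with each liver left out, with Fas added without Vps15LKO replicate 2. Genes called higher numbered 4648 to 5152 and lower 4450 to 5070 with each liver left out. With the replicate block, 5065 genes were higher and 4983 lower, and 20 members higher and 1 lower. Same-numbered livers did not deviate together, so the numbers were not used as pairs, and of the 3 numbers 1 (number 3) marked livers that correlated best with each other. Members near the detection limit in WT, among them Tnfrsf9 and Tnfrsf10b, have folds that depend on the depth, and 16 members were too low to be tested in the same way. Without strand, reads of Tnfsf9, Tnfsf13, Tnfrsf18, Tnfrsf23 and Tnfrsf26 cannot be told from their antisense genes. For changes in calls other than those from fewer genes tested or fewer livers, the cause was not tested.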
